A study of Drosophila melanogaster with 10 samples.

Results

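Nascent RNA of cells labelled Ph RNAi was set directly against nascent RNA of cells labelled Sce RNAi. The contrast takes 7 of the 10 libraries of the study, 3 labelled Ph RNAi and 4 labelled Sce RNAi, and covers all 7624 genes of the authors' table of group means. All libraries came from ML-DmBG3-c2, or BG3, a cultured Drosophila melanogaster line of larval neural origin, grown with insulin. RNA interference (RNAi) was induced by adding double-stranded RNA to the culture medium, in most experiments as a mixture of dsRNAs against each target, and the remaining 3 libraries came from mock-treated cells. The mock libraries are used here to say which of the RNAi groups had left the control level. The sources used here do not give the duration of RNAi, and the labels number the replicates without saying that they were separate cultures.

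Polyhomeotic (Ph) and Sex combs extra (Sce) are core subunits of Polycomb repressive complex 1 (PRC1), with Polycomb (Pc) and either Psc or Su(z)2. Ph carries a SAM domain through which it polymerises and is known for clustering PRC1 on chromatin. Sce is the fly RING1 homolog, the subunit through which the complex ubiquitylates a core histone. In flies PRC1 is best known for keeping Hox genes and other developmental regulators silent, and PRC1 is also found at transcribed genes. Ph is encoded by a pair of neighbouring genes, ph-p and ph-d, and Sce by 1 gene. The study's title places its question at active genes, and the direct contrast asks where depletion of one subunit gives a nascent transcript level other than depletion of the other.

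The values are mean signals per gene, averaged by the authors over the libraries of each group. The columns summed to 192278102 for Ph RNAi, 192180746 for Sce RNAi and 191793598 for mock, so they had been brought to a common total, and a rise or fall shared by all genes cannot be seen. Values per library, their spread and their depth were not used here, so no error stands beside a mean and the direct contrast has no test. A single library could set any mean. Ratios on the log2 scale are log2((Ph RNAi + 581)/(Sce RNAi + 581)), positive where Ph RNAi was higher, with the 10th percentile of all nascent means as the added constant, which shrinks ratios of weakly transcribed genes. Folds are quotients of the means with no constant. The 6942 genes with a mean over the 3 columns above 581 were kept, and "over 2-fold" refers to the log2 scale with the constant. The verbs "rose" and "fell" are reserved for genes with a q under 0.05 against mock in the authors' deposited table, the one measure of replicate error at hand. A q of 0 there stands for a value under 0.0005. Both sets of ratios to mock share the same mock libraries, so a gene can lie on the same side in both for that reason alone.

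The neural origin of the line was checked against marker genes. Of 10 neuronal markers 4 were in the table, with elav at 9594 in mock, 10858 in Ph RNAi and 8989 in Sce RNAi, and brp, Syt1, nSyb, Syn, para and fne were not among its genes. Other gene models cover 98.6% of elav and all of the glial marker moody, which leaves the origin of both signals uncertain. The summed signal of these 4 was 888697, 516408 and 616061 in the same order, and most of it came from CadN, a cadherin gene. CadN alone stood at 863517, 415033 and 583322, so the sum follows this gene. The others, elav, futsch and Nrg, were each highest in Ph RNAi, with futsch at 3168, 6894 and 6394 and Nrg at 12418, 83623 and 17356. Of 6 glial markers 5 were present, with a sum of 56704 in mock, 123042 in Ph RNAi and 62286 in Sce RNAi. Blood cell markers, 4 of 6 present, summed to 141368, 98733 and 149214, and muscle markers, 2 of 6 present, to 490580, 573137 and 480446. The neural stem cell marker pros, 1 of 4 present, stood at 10964, 35791 and 10829. The germ line markers, 2 of 5 present, summed to 4941, 2503 and 3630, and 0 of 4 fat body markers were in the table. The part of these markers in the differences below was not tested. In RNA from a whole culture, more cells of a type and more transcription per cell cannot be told apart.

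The targeted genes were read as a check of the labels, and none showed a fall under its own label. Sce stood at 293193 in the libraries labelled Sce RNAi, at 4461 in those labelled Ph RNAi and at 2475 in mock. It was 65.7-fold higher in Sce RNAi than in Ph RNAi, with a log2 ratio of -5.86, the lowest in the table. ph-p stood at 90923 in the libraries labelled Ph RNAi, 17463 in Sce RNAi and 18685 in mock, a 5.21-fold difference between the RNAi groups. ph-d stood at 57853, 10399 and 10729 in the same order, a 5.56-fold difference. Each targeted gene was thus highest, not lowest, under its own label, and every direction given here rests on the labels. Under the other label ph-p and ph-d lay near mock, and Sce was 1.80-fold above it. Whether these reads came from the genes or from the added double-stranded RNA was not tested. In the authors' deposited table ph-p rose after Ph RNAi (q 0.012), while ph-d (q 0.053) and Sce after Sce RNAi (q 0.377) did not pass.

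The other PRC1 genes differed little between the groups. Pc stood at 6952 in Ph RNAi and 6793 in Sce RNAi, with 6427 in mock. Psc, which encodes a RING-domain partner of Sce, stood at 91465 and 102522 and its paralog Su(z)2 at 89115 and 125771, with mock means of 41974 and 40182. All 4 RNAi means of this pair lay above mock, and Su(z)2 was 1.41-fold higher in Sce RNAi than in Ph RNAi. E(z), the methyltransferase gene of Polycomb repressive complex 2, had a log2 ratio of -0.00.

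Most genes had close to the same nascent signal in both RNAi groups. Of the 6942 genes kept, 6603 (95.1%) lay within 2-fold and 4838 (69.7%) within 25%, a distance that is also read on the log2 scale with the constant, so that weak genes can lie further apart in their means. The median log2 ratio was 0.00, with quartiles at -0.19 and 0.21, and 50.2% of genes had a ratio above 1. The tails were unequal. Over 2-fold higher in Ph RNAi were 255 genes, 3.67% of those kept, and over 2-fold higher in Sce RNAi were 84 genes, 1.21%. At 4-fold the counts were 100 (1.44%) and 4 (0.0576%), and the latter were Sce itself, LpR1, Rgk1 and CG10479. At 1.5-fold they were 494 (7.12%) and 304 (4.38%). The share of genes past 2-fold that were higher in Ph RNAi was 75.2%, and it was 71.8% after quantile normalization of the columns, which moved the median of all genes to -0.06.

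**Figure D1:**
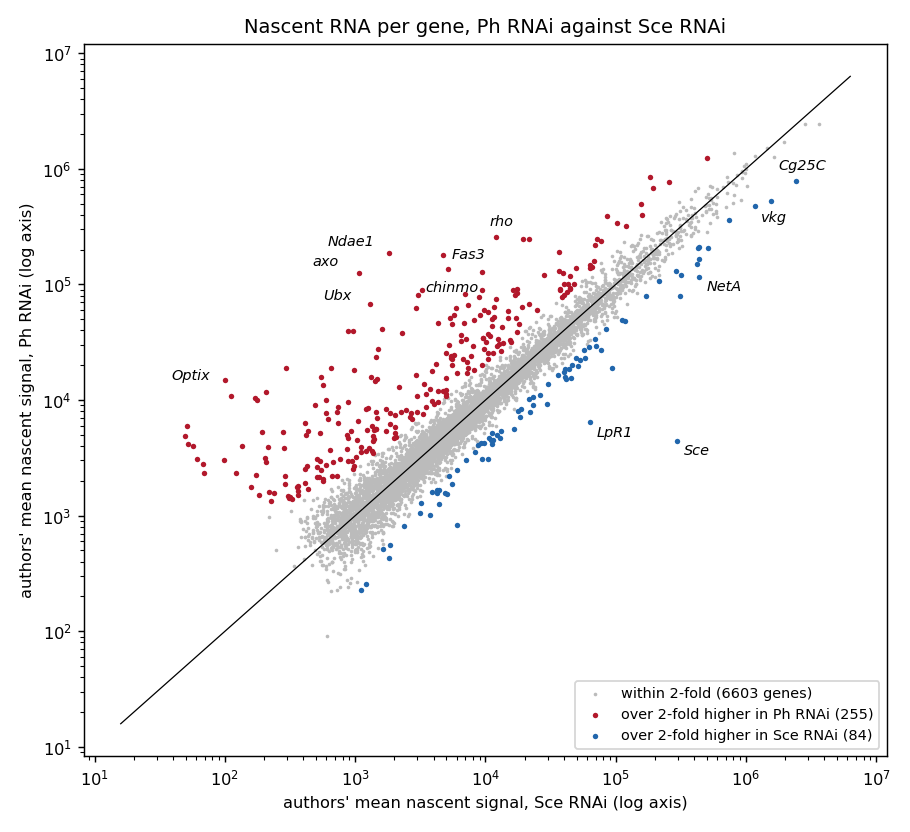
Each point is 1 of the 6942 genes kept, by the authors' mean nascent signal in Sce RNAi (horizontal, log axis) and Ph RNAi (vertical, log axis), with the line of equality. The 255 genes over 2-fold higher in Ph RNAi spread far above the line, while the 84 genes over 2-fold higher in Sce RNAi stay nearer to it, apart from Sce and LpR1.

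The upper tail held genes of every signal level, and many of them were nearly silent elsewhere. Of the 255 genes, 57 had a Sce RNAi mean below the constant of 581, 71 had a mock mean below it and 41 had both, which leaves the size of those folds uncertain. The 41 passed the filter only through their Ph RNAi mean, the same value that places them among the 255. With no filter the counts past 2-fold were 262 and 84. At the other extreme 109 of the 255 had a Sce RNAi mean above that of the median gene. Of the 84 genes higher in Sce RNAi, 52 had a Ph RNAi mean above the median gene and 67 had a mock mean above it. When genes were sorted by mean signal into 10 classes, 2.16% of the weakest class and 5.90% of the strongest were over 2-fold higher in Ph RNAi, against 0.432% and 2.88% for Sce RNAi. That mean was taken over the same Ph RNAi and Sce RNAi values, so a high value in either lifts a gene into a stronger class. The constant also shrinks ratios in the weakest class, so part of the rise with signal is built in. Among the 682 genes left out as too weak, 7 were over 2-fold higher in Ph RNAi on the same scale and 0 in Sce RNAi. They were CG5210, CG7781, CG7888 and tey with the homeobox genes Gsc and lbe and the forkhead gene croc.

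The 12 genes furthest apart toward Ph RNAi included genes of membrane, adhesion and signalling proteins and at least 4 transcription factor genes. Ndae1, a sodium-dependent anion exchanger gene, stood at 187847 in Ph RNAi, 1804 in Sce RNAi and 2552 in mock, a 104-fold difference between the RNAi groups. axo, which encodes a secreted neurexin-like protein of glia, stood at 125829, 1068 and 2983, a 118-fold difference. For both genes the Sce RNAi mean was the lowest of the 3. The adhesion gene Fas3 stood at 178536, 4694 and 2841 and its log2 ratio was 5.09.

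dpp, which encodes the BMP ligand of the fly, stood at 39611 in Ph RNAi, 885 in Sce RNAi and 882 in mock, so that Sce RNAi and mock were level. sev, the receptor tyrosine kinase gene of R7 photoreceptors, stood at 88735, 3260 and 8712, and rho, the protease gene that releases EGF ligands, at 258664, 12145 and 10443. They were 27.2-fold and 21.3-fold higher in Ph RNAi than in Sce RNAi. The models of rho and of CG42741, at 136941, 5130 and 6256, lie wholly within Ptp61F and twi on the opposite strand. How strand was handled is not stated in the sources used here, so the origin of these signals is uncertain and was not tested. The filter left out twi, at 204 in Ph RNAi, 40 in Sce RNAi and 101 in mock, and Ptp61F had a log2 ratio of 0.02.

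Transcription factor genes among these 12 included Ubx, chinmo, Optix and oc. Ubx stood at 67888 in Ph RNAi, 1304 in Sce RNAi and 316 in mock, a 52.0-fold difference between the RNAi groups, and Ama, an immunoglobulin adhesion gene of the Antennapedia complex, stood at 39931, 962 and 271, with 33.2% of its model overlapped by a noncoding RNA gene. chinmo, a BTB zinc finger gene of neuronal timing, stood at 80372, 3043 and 653 with a log2 ratio of 4.48. Optix, a Six-family homeobox gene of the eye field, stood at 14821, 101 and 216, and oc, the head homeobox gene orthodenticle, at 18886, 294 and 246. The low means of Optix and oc lay below 581, so their 147-fold and 64.2-fold differences are uncertain in size, with log2 ratios of 4.50 and 4.48. Of the 12 genes with the highest ratios, 6 rose after Ph RNAi in the authors' deposited table, namely axo (q 0.049), Ubx and chinmo (q 0 each), Ama (q 0.032), sev (q 0.017) and oc (q 0.021).

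Toward Sce RNAi the extremes were fewer and smaller, and most were genes that mock cells transcribed strongly. After Sce itself came LpR1, a lipophorin receptor gene, at 63127 in Sce RNAi, 6399 in Ph RNAi and 39943 in mock, a 9.87-fold difference. Rgk1, a small GTPase gene, stood at 94165, 18913 and 99111, and beat-IIIc, of the Beaten path family of axon guidance proteins, at 313279, 79082 and 316712. In both, Sce RNAi was level with mock and Ph RNAi alone lay below it, 4.98-fold and 3.96-fold under Sce RNAi.

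The secreted guidance cue genes NetA and NetB stood at 439104 and 421275 in Sce RNAi, 115862 and 149820 in Ph RNAi, and 652147 and 485181 in mock. NetA was thus 3.79-fold and NetB 2.81-fold lower in Ph RNAi than in Sce RNAi, and both fell after Ph RNAi in the authors' deposited table (q 0.021 and 0.034). The type IV collagen genes Cg25C and vkg, among the strongest in the table, stood at 2421361 and 1566870 in Sce RNAi, 779776 and 528943 in Ph RNAi, and 2029895 and 1415310 in mock. They were 3.11-fold and 2.96-fold apart. egr, the fly TNF ligand gene, stood at 10536, 3081 and 13839 and MFS3, a transporter gene, at 45732, 15520 and 21747. CG10479 stood at 6075, 837 and 2724, and CG10365 at 29516, 9323 and 18329.

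**Figure D2:**
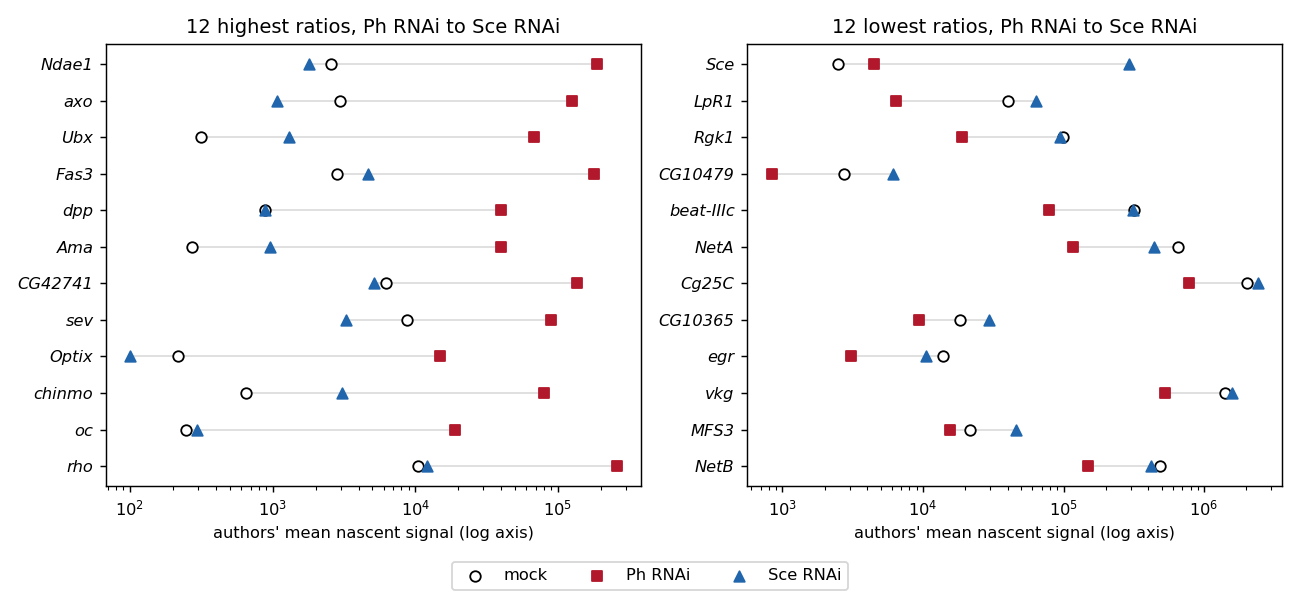
Authors' mean nascent signal (log axis) in mock (open circles), Ph RNAi (squares) and Sce RNAi (triangles) for the 12 highest (left) and 12 lowest (right) ratios of Ph RNAi to Sce RNAi, with no error since group means alone were used. On the left Ph RNAi stands apart from both other groups, with Ndae1 at 187847 against 1804 in Sce RNAi; on the right Ph RNAi is lowest for every gene but Sce.

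Which group had left the mock level was read at 1.5-fold. Of the 255 genes higher in Ph RNAi, 122 (47.8%) had moved in Ph RNAi alone, 79 (31.0%) had moved the same way in both, 42 (16.5%) had moved in opposite ways and 12 (4.71%) had moved in Sce RNAi alone. The 79 were all above mock in both groups, and further above it in Ph RNAi. Of the 84 genes higher in Sce RNAi, 45 (53.6%) had moved in Ph RNAi alone, 15 (17.9%) in Sce RNAi alone, 13 (15.5%) in opposite ways and 11 the same way in both. The split depends on the distance that counts as moved. With a distance of 25% the genes moved in Ph RNAi alone were 74 and 28, and those moved in opposite ways 67 and 27. With a distance of 2-fold those moved in opposite ways were 18 and 1, and with the constant added to the ratios to mock, a setting chosen after seeing the data, 21 and 6.

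**Figure D3:**
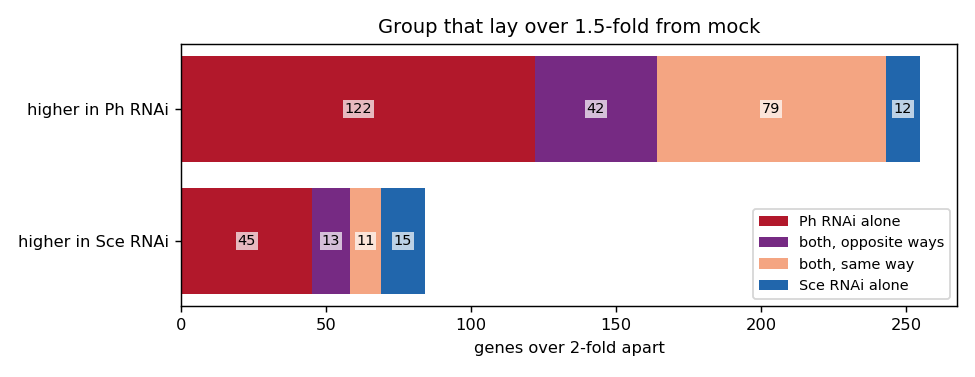
Counts of genes over 2-fold apart (horizontal), split by which RNAi group lay over 1.5-fold from mock. Of the 255 genes higher in Ph RNAi (upper bar) 122 had moved in Ph RNAi alone and 12 in Sce RNAi alone, and of the 84 genes higher in Sce RNAi (lower bar) 45 and 15.

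A small set lay above mock in one RNAi group and below it in the other. Over all genes kept, 43 (0.619%) were over 1.5-fold above mock in Ph RNAi and over 1.5-fold below it in Sce RNAi, and 20 (0.288%) had the reverse. The highest ratios in the first set were those of axo, sev and Optix. It also held repo, the homeobox gene that defines glia, at 41380 in Ph RNAi, 1619 in Sce RNAi and 2890 in mock, a 25.6-fold difference, and Picot, a phosphate cotransporter gene, at 10795, 112 and 249. For Optix and Picot both the Sce RNAi and the mock mean lay below 581, so their place below mock in Sce RNAi is uncertain. gukh, a scaffold gene of synapses and epithelia, stood at 246891, 71496 and 149111, and it both rose after Ph RNAi (q 0.044) and fell after Sce RNAi (q 0) in the authors' deposited table. Of the other glial markers, nrv2 was also highest in Ph RNAi, at 43172 against 13505 in Sce RNAi and 9296 in mock, while moody, Eaat1 and wrapper stood at 37271, 846 and 374 in Ph RNAi and at 45707, 891 and 563 in Sce RNAi.

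Further members of the first set, chosen after their values were seen, were strongly transcribed in mock. fng, the glycosyltransferase gene that modifies Notch, stood at 81139 in Ph RNAi, 16997 in Sce RNAi and 51317 in mock, a 4.77-fold difference. pdm3, a POU-domain gene, stood at 74169, 11955 and 31596, and ome, a peptidase gene, at 90010, 9417 and 28254. None of these 3 had a q under 0.05 against mock on either side in the authors' deposited table. In the reverse set LpR1, CG10479 and CG10365 led, with CG1681 at 9381 in Sce RNAi, 3089 in Ph RNAi and 5355 in mock. CCKLR-17D3, a neuropeptide receptor gene, stood at 21788, 7840 and 12811.

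The genes that had moved in Sce RNAi alone, again chosen after their values were seen, were of several kinds. nimA, a Nimrod-family gene, stood at 614 in Sce RNAi, 6890 in Ph RNAi and 5468 in mock, 11.2-fold lower in Sce RNAi than in Ph RNAi. kon, a transmembrane protein gene of muscle attachment and glia, stood at 10482, 37635 and 27602, and drl, a receptor gene of axon guidance, at 10472, 22759 and 18371. On the other side the PDGF/VEGF-like ligand genes Pvf2 and Pvf3 stood at 43878 and 21605 in Sce RNAi, 18412 and 10280 in Ph RNAi, and 24127 and 11345 in mock. Thor, which encodes the translation inhibitor 4E-BP, stood at 10660, 4652 and 3183, and comm, which sorts the Robo receptor, at 57101, 27317 and 23170. None of these 7 had a q under 0.05 in either comparison with mock in the authors' deposited table.

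Among genes transcribed above the median gene in both RNAi groups, the highest ratios after Fas3, CG42741 and rho were those of zormin, MESK2 and Argk. zormin, which encodes a titin-like muscle protein, stood at 127937 in Ph RNAi, 9423 in Sce RNAi and 16365 in mock, 13.6-fold apart. MESK2 stood at 248722, 19507 and 20164, and Argk, the arginine kinase gene of cellular energy buffering, at 249675, 21527 and 36075. They were 12.8-fold and 11.6-fold apart. zormin (q 0) and Argk (q 0.034) rose after Ph RNAi in the authors' deposited table, while MESK2 (q 0.054) did not pass. The lowest in this class were LpR1, Rgk1, beat-IIIc, NetA, Cg25C and CG10365.

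The authors' calls against mock lay mostly on the Ph RNAi side. Among the genes kept, 128 (1.84%) rose and 59 (0.85%) fell after Ph RNAi, and 5 (0.072%) rose and 4 (0.0576%) fell after Sce RNAi, in the authors' deposited table. Of the 255 genes higher in Ph RNAi, 73 (28.6%) rose after Ph RNAi in the authors' deposited table, and after Sce RNAi 2 rose and 2 fell. Of the 84 genes higher in Sce RNAi, 18 (21.4%) fell after Ph RNAi in the authors' deposited table and 0 were called after Sce RNAi, where 21 had an unadjusted p under 0.05. The direct contrast shares the Ph RNAi libraries with these calls, so such counts are a description. A call in one comparison and not in the other does not show that the groups differ.

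Read from the calls, the 128 genes that rose after Ph RNAi had a median log2 ratio of Ph RNAi to Sce RNAi of 1.27. Of them 73 were over 2-fold higher in Ph RNAi, 0 were over 2-fold higher in Sce RNAi and 18 lay within 25%. The 59 genes that fell had a median of -0.59, with 18 over 2-fold higher in Sce RNAi and 10 within 25%. The called genes lowest in Ph RNAi relative to Sce RNAi were NetA and NetB, then Jheh1, rst and CG4829. rst, an adhesion gene of the eye, stood at 164973 in Ph RNAi, 436314 in Sce RNAi and 444173 in mock, and CG4829 at 19862, 51010 and 66985. Both fell after Ph RNAi in the authors' deposited table (q 0.048 and 0.032). The model of rst lies wholly within kirre on the opposite strand and that of Jheh1 is covered by an antisense gene, so their origin is uncertain.

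Some called genes had the same level in both RNAi groups. Nhe2, a sodium/hydrogen exchanger gene, stood at 81548 in Ph RNAi, 78069 in Sce RNAi and 46412 in mock and rose after both in the authors' deposited table (q 0.031 and 0). Other models cover 95.5% of it. eIF5B, CG2263, Rab6 and Elf, called after Ph RNAi alone, had log2 ratios between the RNAi groups from -0.06 to 0.09. mirr, an Iroquois homeobox gene, stood at 90942 and 75562 with 4970 in mock, so both groups lay far above mock, with a log2 ratio of 0.27 between them. In the authors' deposited table mirr rose after Ph RNAi (q 0.012) and did not pass after Sce RNAi (q 0.135), a split in calls at nearly level means.

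The 9 genes called after Sce RNAi were placed on both sides of the direct contrast. zfh2, a zinc finger homeobox gene, stood at 28066 in Sce RNAi, 120032 in Ph RNAi and 2477 in mock, and cpo, which encodes an RNA-binding protein of neurons, at 16392, 89334 and 3298. Both rose after Sce RNAi in the authors' deposited table and were still 4.28-fold and 5.45-fold higher in Ph RNAi. klu, a zinc finger gene, rose after Sce RNAi in the authors' deposited table and was 1.74-fold higher there than in Ph RNAi, at 6809, 3915 and 1052. LamC, a lamin gene, stood at 2919, 6171 and 543, and its model lies wholly within ttv. wun, a lipid phosphatase gene of germ cell guidance, stood at 26270, 20049 and 60432, and it fell after both RNAi treatments in the authors' deposited table (q 0 in each). alpha-Est1, an esterase gene, stood at 613, 90 and 2770, and CG42390 at 169, 10422 and 419. The Ph RNAi mean of alpha-Est1 lay below 581, as did both the Sce RNAi and the mock mean of CG42390. The size of these differences is therefore uncertain, and so is the place of CG42390 below mock in Sce RNAi.

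Genes of known roles were then read as groups, by counts and medians set beside the 3.67% and 1.21% of all genes and the overall median of 0.00. Counts of calls after Ph RNAi stand beside 1.84% that rose and 0.85% that fell among all genes kept, in the authors' deposited table. The list of Hox genes, homeobox genes that set segment identity, and their complex neighbours held 13 symbols, of which 6 were among the genes of the table, 5 Hox genes and Ama. All 6 were over 2-fold higher in Ph RNAi and their median log2 ratio was 2.42. The other 7 were not analysed here. After Ubx and Ama came abd-A at 5267 in Ph RNAi, 277 in Sce RNAi and 139 in mock, and Scr at 7955, 1438 and 149. Antp stood at 23822, 5469 and 743, and Abd-B, at 17165, 6052 and 310, had the smallest log2 ratio of 1.42. The Sce RNAi mean lay above mock in all 6, 19.5 times mock for Abd-B, and 5 of the 6 mock means lay below 581. abd-A, with both other means below 581, passed the filter through its Ph RNAi mean alone. For Ubx, Ama and Scr too, the mock and Sce RNAi means alone were too low for a 3-column mean above 581. CG46458 overlaps 60.3% of the model of Antp.

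Transcription factor genes known as Polycomb targets, other than Hox genes, numbered 74 in the list, of which 36 were in the table and 31 were kept. Of the 31, 25 had a ratio above 1, 16 were over 2-fold higher in Ph RNAi and 1 in Sce RNAi, and the median was 1.30. After Ph RNAi 14 of the 31 rose and 0 fell in the authors' deposited table, against 1.84% and 0.85% of all genes kept. Optix, oc, salm and ap had both other means below 581 and passed the filter only through Ph RNAi. For salr, Dll, Dr, nub and bowl too, the mock and Sce RNAi means alone were too low for a 3-column mean above 581. Such members entered the counts through the group in which they were high. In 15 of the 31 mock lay below 581, and 5 more members (wg, lbe, unpg, btd and drm) stayed below the filter. Examples beside Optix, chinmo and oc were the T-box gene bi at 37762 in Ph RNAi, 2284 in Sce RNAi and 385 in mock, and the LIM-homeobox gene tup at 23669, 1437 and 353. Poxm, a paired-box gene, stood at 62577, 5949 and 1014, Vsx1, a homeobox gene of the visual system, at 23130, 5436 and 295, and Dll, the limb homeobox gene Distal-less, at 8750, 734 and 492. An antisense gene covers all of the model of bi. Further genes past 2-fold were dac, zfh2, bowl, Dr, nub, salr, ap and salm, with log2 ratios from 2.31 for dac to 1.30 for salm.

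The members of that list that mock cells transcribed strongly were ordered differently. C15, a homeobox gene, stood at 22955 in Ph RNAi, 57653 in Sce RNAi and 211396 in mock, so that both RNAi groups lay below mock and Ph RNAi was 2.51-fold the lower. Lim1 stood at 213914, 320768 and 592137, with a log2 ratio of -0.58, and hth and pnr had -0.42 and -0.31. NK7.1 stood at 248392, 152688 and 47653, with both groups above mock. The neighbouring genes en and inv had ratios of -0.11 and 0.29 and bab2 had 0.10. With both RNAi means required to lie above the median gene, 12 genes of the list remained and their median was 0.28.

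Genes of the Polycomb and trithorax systems themselves had medians near 0. PRC1 subunits, 10 genes, had a median of -0.06, and the genes past 2-fold were the 3 targeted ones. PRC2 subunits had -0.07 over 8 genes and Polycomb recruiters -0.14 over 9, with 0 past 2-fold in either direction. Trithorax group genes, activators that oppose Polycomb, had -0.12 over 20 genes, 15 of them below 0 and none past 2-fold. Their lowest was tna, at -0.77, which fell after Ph RNAi in the authors' deposited table (q 0.044).

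Signalling ligands split into opposite ends. Of 20 kept, 5 were over 2-fold higher in Ph RNAi and 5 in Sce RNAi, with a median of -0.01. Higher in Ph RNAi were dpp, the Notch ligand gene Dl, the cytokine genes upd2 and upd3 and the Wnt gene Wnt4. Dl stood at 29362 in Ph RNAi, 8090 in Sce RNAi and 10355 in mock, and Wnt4 at 31970, 10168 and 5596, the latter a rise after Ph RNAi in the authors' deposited table (q 0.012). Higher in Sce RNAi were NetA, NetB, egr, Pvf2 and Pvf3. Of the 20, 1 rose and 3 fell after Ph RNAi in the authors' deposited table.

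Pathway genes downstream of these ligands were for the most part near the overall median. Notch pathway genes had a median of 0.18 over 15 genes, with fng, Dl and the Enhancer of split genes HLHmbeta and HLHm3 over 2-fold higher in Ph RNAi. HLHmbeta, a repressor gene that Notch activates, stood at 1786 in Ph RNAi, 357 in Sce RNAi and 879 in mock. Its Sce RNAi mean lay below 581, so the size of this difference is uncertain. A further 4 members of the list, HLHm7, m2, m6 and malpha, were left out as too weak, with log2 ratios from -0.03 to 0.48. JAK/STAT genes had 0.25 over 10 genes with chinmo, upd2 and upd3 past 2-fold. Receptor tyrosine kinase pathway genes had 0.21 over 18 genes, with sev, rho and aos, which lies wholly within CG33158, past 2-fold and Pvr, the receptor gene for Pvf2 and Pvf3, lowest at -0.65. Genes linked to JNK signalling had 0.12 over 14 genes. Among these the filamin gene cher stood at 46197, 4292 and 4015 and rose after Ph RNAi in the authors' deposited table (q 0.017), and Mmp1, a matrix metalloproteinase gene, stood at 319451, 120841 and 62527.

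Wingless and Hedgehog pathway genes, 21 kept, had a median of -0.07, with the kinase gene nmo over 2-fold higher in Ph RNAi and the receptor genes ptc and fz over 2-fold higher in Sce RNAi. fz, the Wnt receptor gene, stood at 205121 in Ph RNAi, 424386 in Sce RNAi and 660859 in mock and fell after Ph RNAi in the authors' deposited table (q 0.017). ptc, the Hedgehog receptor gene, stood at 19995, 45932 and 30188, on opposite sides of mock in the RNAi groups. Of the 21, 1 rose and 3 fell after Ph RNAi in the authors' deposited table.

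Adhesion and guidance genes held large differences both ways. Of 27 axon guidance genes, 7 were over 2-fold higher in Ph RNAi and 4 in Sce RNAi, around a median of -0.01. The immunoglobulin adhesion genes Nrg and Fas2 stood at 83623 and 394754 in Ph RNAi, 17356 and 85746 in Sce RNAi, and 12418 and 55366 in mock. The netrin receptor genes fra and unc-5 stood at 131657 and 125181 in Ph RNAi, 36851 and 39137 in Sce RNAi, and 38149 and 44815 in mock, while both netrin genes were lower in Ph RNAi. Fas1 stood at 51742, 17016 and 23889, and it rose after Ph RNAi, as did Nrg (q 0.012 each), in the authors' deposited table. These were the 2 of the 27 that rose, while 7 fell after Ph RNAi in the authors' deposited table, NetA, NetB, 18w, Sema-1a, sli, dnt and Fili. With NetA, NetB and beat-IIIc the fourth gene over 2-fold higher in Sce RNAi was the Toll-family receptor gene 18w, at a log2 ratio of -1.09.

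Septate junction and polarity scaffold genes, which build the occluding junctions of epithelia and glia, lay on the Ph RNAi side. Of 22, 20 had a ratio above 1, 6 were over 2-fold higher in Ph RNAi and 0 in Sce RNAi, with a median of 0.30. vari, a membrane-associated guanylate kinase gene, stood at 66131 in Ph RNAi, 7346 in Sce RNAi and 5830 in mock. nrv2, a sodium pump subunit gene of septate junctions and glia, stood at 43172, 13505 and 9296. The others past 2-fold were Nrg, gukh, the junction scaffold gene cno and the apical polarity gene crb. After Ph RNAi 3 of the 22 rose and 0 fell in the authors' deposited table. Summed glial markers were also higher in Ph RNAi, as given above, but only through repo and through nrv2, which belongs to both sets. The glial markers moody, Eaat1 and wrapper were lower in Ph RNAi than in Sce RNAi.

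Extracellular matrix genes lay on the Sce RNAi side. Of 16, 13 had a ratio below 1, 4 were over 2-fold higher in Sce RNAi and 1 in Ph RNAi, with a median of -0.43. Beside the collagen genes these were Ppn, a papilin gene, at 205507 in Ph RNAi, 513379 in Sce RNAi and 656683 in mock, and the laminin gene LanB1 at 211546, 437760 and 788952. The laminin chain genes LanA and LanB2 had log2 ratios of -0.78 and -0.70. Tig, the tiggrin gene of integrin binding in muscle, went the other way at 7886, 728 and 398 and rose after Ph RNAi in the authors' deposited table (q 0.034). Of the 16, 2 rose and 2 fell after Ph RNAi in that table of the authors. Blood cell genes, of which vkg, Cg25C and Ppn are also members, had a median of -0.65 over 9 genes with 8 below 0, and summed blood cell markers were lower in Ph RNAi. srp, the GATA factor gene of blood and fat body, had -0.81.

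Structural and cell type genes were mixed. Muscle and contractile genes had a median of 0.08 over 13 genes, with Lmpt, a LIM-domain gene, at 493822 in Ph RNAi, 155160 in Sce RNAi and 55596 in mock. Zasp52, a Z-disc gene, stood at 362618, 745477 and 615816, and other models overlap 42.3% of it. Cytoskeletal scaffold genes had 0.23 over 14 genes with cher and the spectraplakin gene shot past 2-fold, the latter at 1233381, 499082 and 295915. Neuronal genes had 0.26 over 7 genes, with cpo, Nrg and pros higher in Ph RNAi and CadN lowest at -0.49. Glial genes had 0.41 over 8 genes, with repo, nrv2 and the citrate carrier gene Indy past 2-fold. Germ line genes had -0.39 over 4 genes and fat body genes -0.67 over 3.

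Among metabolic and stress genes, glycolytic enzyme genes lay higher in Ph RNAi. Of 13, 11 had a ratio above 1, with a median of 0.65, and Pglym78 was the 1 past 2-fold, at 11381 in Ph RNAi, 5017 in Sce RNAi and 4540 in mock. The lactate dehydrogenase gene ImpL3 stood at 32656, 20782 and 7358 and rose after Ph RNAi in the authors' deposited table (q 0.041), and Gapdh1, Gapdh2 and PyK had log2 ratios of 0.94, 0.97 and 0.84. Hex-A was the lowest, at -0.61. Heat shock genes had 0.37 over 14 genes with 3 past 2-fold, and innate immunity genes 0.16 over 16, with the Toll ligand gene spz at 33736, 12386 and 3634. Ecdysone response genes had -0.09 over 14 genes, and Eip75B, a nuclear receptor gene, stood at 100895, 47519 and 32319. Genes of lipid metabolism and esterases had -0.22 over 17 genes, with LpR1 alone past 2-fold.

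Growth and housekeeping groups differed by small amounts. DNA replication genes had a median of -0.23, with 22 of 29 below 0, and mitosis genes -0.36, with 22 of 25 below 0. Proteasome subunit genes had 0.37, with 27 of 30 above 0 and Prosbeta3 highest at 0.69. In these 3 groups 0 genes passed 2-fold in either direction, against 3.67% and 1.21% of all genes. Cytoplasmic ribosomal protein genes had 0.02 over 84 genes, with RpL15 alone past 2-fold, and mitochondrial ribosomal protein genes had 0.05 over 61, signs that turned to -0.06 and -0.02 after quantile normalization. The 85 histone gene copies had 0.22, but near-identical copies can share reads and do not count as separate measurements. Cohesin and insulator genes, pausing and elongation genes and dosage compensation genes had medians of -0.06, -0.07 and -0.14.

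**Figure D4:**
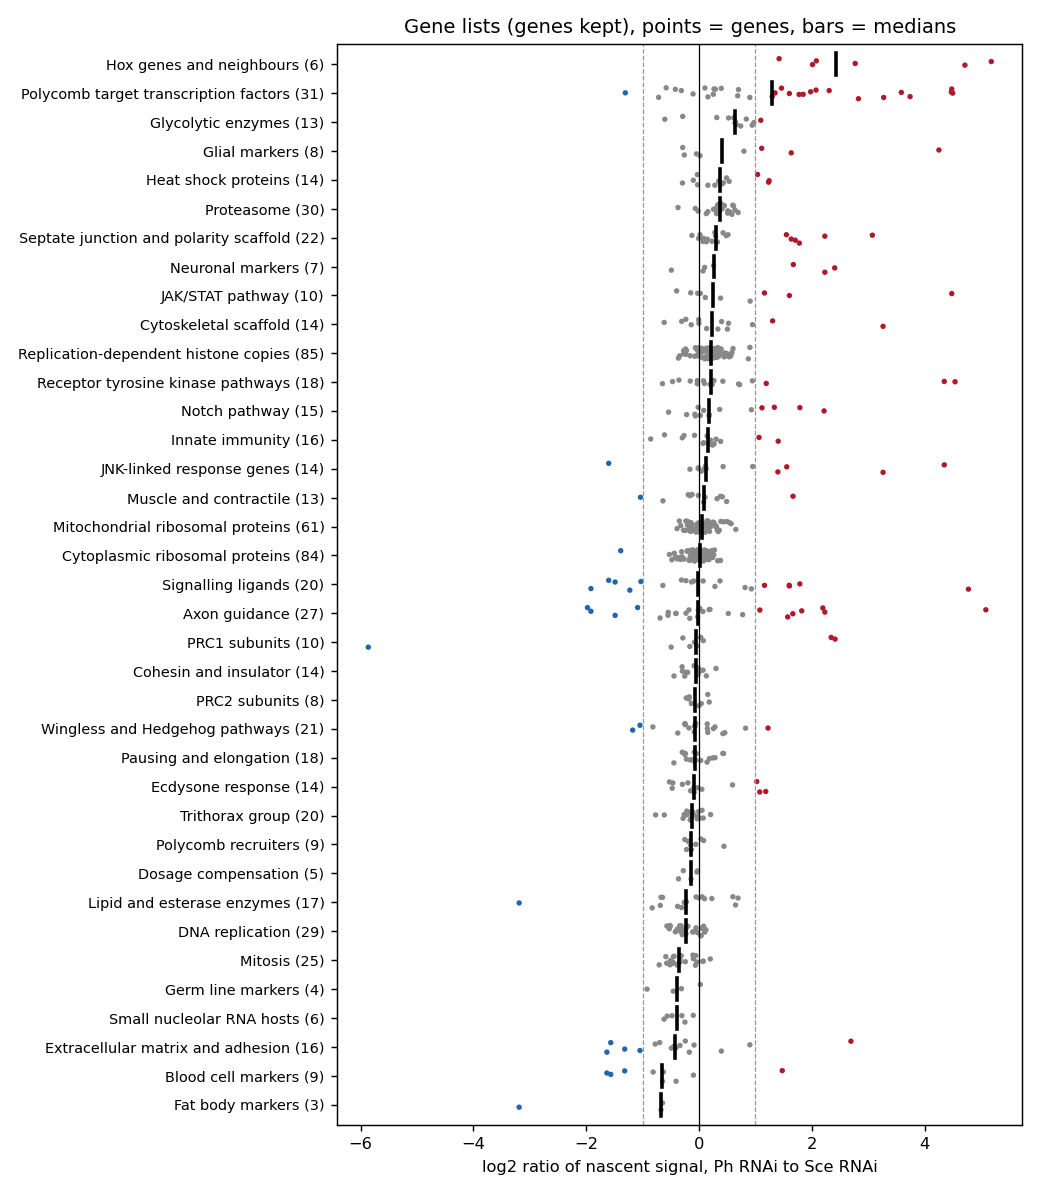
Log2 ratio of nascent signal, Ph RNAi to Sce RNAi (horizontal), for every gene kept in 37 gene lists (number kept in brackets), with list medians as bars and the 2-fold marks dashed. Hox genes (median 2.42) and Polycomb target transcription factors (1.30) stand furthest to the right, extracellular matrix genes (-0.43) lie to the left, and signalling ligands and axon guidance genes spread to both sides.

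Several of the genes past 2-fold lay next to each other on the chromosomes, counting only genes of the table. Among the 255 genes higher in Ph RNAi, 44 sat in 19 runs of adjacent genes of the table. How many runs a like number of genes taken from all genes kept would form was not computed. The counts of runs in either direction are thus a description and do not show clustering. The longest run was Ubx, abd-A, the noncoding RNA gene msa and Abd-B, the bithorax complex, and another was Ama, Scr and Antp. Other runs were osp, Adh and mol, the zinc finger pair disco-r and disco, the spalt pair salr and salm, the cytokine pair upd2 and upd3, and ph-d with ph-p. Ndae1 and Wnt4 were also adjacent. Adh lies wholly within osp, and the Hsp70 copies Hsp70Bbb, Hsp70Bb and Hsp70Bc are near identical, so such runs can share signal. The run of CG31462, CG43462 and Obp85a may likewise hold 1 gene model more than once. Among the 84 genes higher in Sce RNAi, 10 sat in 5 runs, which included vkg with Cg25C, NetA with NetB, and Pvf2 with Pvf3.

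The major chromosome arms held similar shares. Over 2-fold higher in Ph RNAi were 4.07% of genes on 2L, 3.38% on 2R, 4.02% on 3L, 3.96% on 3R and 2.72% on X, and the shares higher in Sce RNAi ran from 0.989% on X to 1.55% on 2R. On the small chromosome 4, with 57 genes, 1.75% were over 2-fold higher in Ph RNAi and 0 in Sce RNAi. Gene models overlapped over more than 50% of their length by another gene made up 27 of the 249 matched genes higher in Ph RNAi and 10 of the 83 higher in Sce RNAi, against 10.9% of all matched genes.

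Total RNA from libraries outside the 10 samples gave a separate set of values for the same contrast. In the authors' deposited table the ratios of total RNA to mock after Ph RNAi and after Sce RNAi can be divided, which cancels the mock. This quotient has no constant added, whereas the constant of 581 shrinks the nascent ratios of weak genes. Shares past 2-fold and medians in nascent and total RNA are therefore not on the same scale, and their sizes cannot be compared directly. By this quotient 49.9% of the genes kept lay above 1, while 5.3% were over 2-fold higher in Ph RNAi and 3.24% in Sce RNAi. Of the 255 genes higher in Ph RNAi in nascent RNA, 246 (96.5%) lay the same way in total RNA and 199 (78.0%) by over 2-fold, with a median log2 of 2.00 against 1.70 in nascent RNA. Of the 84 genes higher in Sce RNAi, 74 (88.1%) lay the same way and 43 (51.2%) by over 2-fold, with medians of -1.05 against -1.20.

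Read from total RNA, the shares were smaller. Of 368 genes over 2-fold higher in Ph RNAi in total RNA, 199 (54.1%) were so in nascent RNA, and of 225 higher in Sce RNAi 43 (19.1%) were. In 69 and 102 of them nascent RNA lay within 25%. Across the 6942 genes the log2 ratios had a Pearson correlation of 0.62 and a Spearman correlation of 0.35, given as a description, since genes are not independent replicates. The targeted genes were again highest under their own label, and for Sce the log2 quotient from the authors' deposited table was -4.22.

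**Figure D5:**
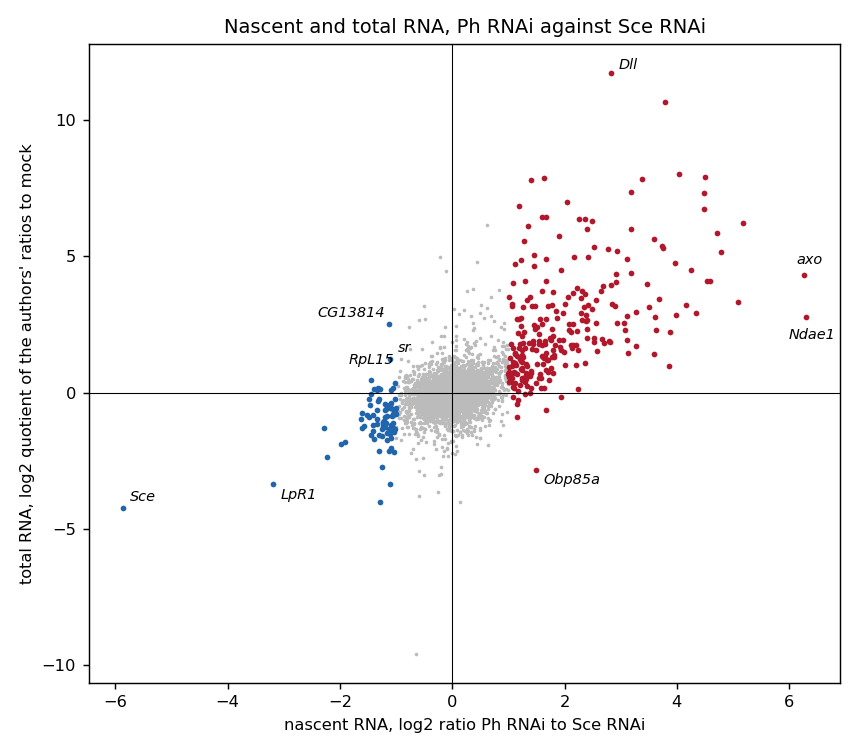
Log2 ratio of Ph RNAi to Sce RNAi in nascent RNA (horizontal) against the log2 quotient of the authors' total RNA ratios to mock (vertical), for 6942 genes, coloured by the 2-fold mark in nascent RNA. Of the 255 genes to the right 246 lie above 0 in total RNA, and of the 84 to the left 74 lie below 0, with Obp85a, CG13814 and sr over 2-fold the other way.

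The exceptions to the shared direction were few. Obp85a, an odorant-binding protein gene, was over 2-fold higher in Ph RNAi in nascent RNA, with means of 4916 against 1378, while its log2 quotient of total RNA from the authors' deposited table was -2.83. Its model lies wholly within CG45263. CG13814 and sr, an early growth response factor gene of tendon cells, were over 2-fold higher in Sce RNAi in nascent RNA, while their quotients from the authors' deposited table were 2.53 and 1.23. sr stood at 16311 in Ph RNAi, 35771 in Sce RNAi and 44779 in mock.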

How the data were processed

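Nascent RNA was isolated from chromatin of BG3 cells, per the labels' protocols, with enzymatic removal of uncapped RNA, oligo(dT) depletion of mRNA, and Ion Torrent libraries built to retain native 3' ends. SAMtools and bedtools are named in the submitters' processing notes. Not given in the sources used here are the aligner, genome build, annotation, counting rule, statistical test and the method behind the q-values. Per the file headers, the authors deposited the mean nascent signal per gene for mock, Ph RNAi and Sce RNAi. Per the file headers, the authors also deposited, for each RNAi treatment and for every gene a ratio to mock with its p-value and q-value, in nascent and in total RNA. These were deposited with 3 decimals. A further 4 columns of total RNA means match no sample and were not used. The depth per library is unknown.

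Groups followed the sample titles. From the deposited means log2 ratios of Ph RNAi to Sce RNAi were computed with a constant of 581, the 10th percentile of the nascent means, for 6942 genes whose mean over the 3 nascent columns exceeded it (682 were left out). With group means alone no test of the direct contrast, no interval and no omission of single libraries could be computed. The total RNA contrast is the quotient of the authors' ratios, with no constant. The script was tested on simulated data. Symbols, chromosome arms, neighbours and overlaps came from the BDGP6 annotation of Ensembl release 115, which matched 7517 of 7624 symbols. Python 3.11.15, pandas 2.3.3, numpy 2.4.6, scipy 1.17.1 and matplotlib 3.10.9 were used.

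The contrast, its gene lists and its genes were chosen with earlier results of these data known, so no list is independent support. In the 37 lists, histone and some proteasome entries were matched to the table's names after the files were seen. Genes named by rule, among those whose higher RNAi mean exceeded its column's median, were the 12 highest and 12 lowest ratios, the 5 largest each way with RNAi groups on opposite sides of mock, and the 6 highest and lowest with both means above the median. The rule also took the 5 highest, lowest and nearest to 0 among genes with an authors' q under 0.05, all genes called after Sce RNAi, PRC1 core genes, the extremes of each list, and members past 2-fold of the Hox, Polycomb target, ligand, muscle and glycolysis lists. Other list members, neighbours and examples were picked with their values in view. Alternatives changed the constant, filter, fold mark, scaling and distance from mock. Promoter sequence was not analysed here.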

Additional observations from a re-analysis of the deposited data

How the results depend on the processing

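The alternatives run on ratios were constants 10 times larger and smaller, no filter, both means above the median gene, quantile normalization and centring on the median. Under these none of the genes named by rule and none of the list medians that lay past 2-fold changed direction, and other genes past 2-fold were followed only by their counts. Signs changed for the list medians of signalling ligands (0.07 with no filter), axon guidance (0.00) and germ line genes (0.02, both means above the median), for both ribosomal protein lists after quantile normalization, and for Nhe2, Pc and tud under that normalization. The counts past 2-fold depended on how weak genes were treated. The 255 genes higher in Ph RNAi were 124 with the constant 10 times larger, 314 with it 10 times smaller, 262 with no filter, 242 after quantile normalization and 109 of 3595 genes with both means above the median gene. The 84 genes higher in Sce RNAi were 31, 145, 84, 95 and 52 in the same order. At 1.5-fold and 4-fold the counts were 494 and 100 for Ph RNAi and 304 and 4 for Sce RNAi. The share higher in Ph RNAi ranged from 67.7% with both means above the median to 80.0% with the larger constant. The Polycomb target median of 1.30 was 0.33 with the larger constant, 0.92 with no filter and 0.28 with both means above the median. With the larger constant 20 named genes, Abd-B (0.95), Scr (0.93) and abd-A (0.86) among them, no longer passed 2-fold, and with the smaller constant 6 more passed.

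Among genes higher in Ph RNAi, with 25% as the distance from mock, 74 had moved in Ph RNAi alone, 67 in opposite ways and 6 in Sce RNAi alone. At 2-fold, 18 had moved in opposite ways and 12 in neither group. With the constant added to the ratios to mock, an alternative chosen after seeing the data, 21 had moved in opposite ways and 1 in neither group, and quantile normalization also left 1 in neither. Among genes higher in Sce RNAi, 28 had moved in Ph RNAi alone, 27 in opposite ways, 25 the same way and 4 in Sce RNAi alone with a distance of 25%. At 2-fold the counts were 1 in opposite ways, 3 the same way, 8 in Sce RNAi alone and 26 in neither, and with the constant 6 had moved in opposite ways. In the authors' deposited table, genes called after Ph RNAi were 136 and 32 at q under 0.1 and 202 and 51 at p under 0.05, and those called after Sce RNAi at p under 0.05 were 76 and 21, in the sets higher in Ph RNAi and in Sce RNAi. Leaving out the 3 targeted genes, or genes overlapped over more than 50%, both added after seeing the data, kept the counts past 2-fold within 1.5-fold. No paired analysis was possible because the columns hold group means and carry no replicate numbers, and for the same reason no library could be left out.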

Other observations

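A further set, chosen after values were seen, was genes that host small nucleolar RNAs or small Cajal body RNAs in their introns. It held 4 of the 84 genes over 2-fold higher in Sce RNAi. They were RpL15, tra2, Irbp and x16, out of 90 hosts (4.44%), against 1.17% of 6753 genes that host none, and 0 of the 90 hosts were over 2-fold higher in Ph RNAi. Within the 2 highest signal classes, which held 56 of the hosts, the shares were 5.36% of hosts and 2.61% of other genes. RpL15, a ribosomal protein gene of the large subunit, stood at 121665 in Ph RNAi, 319493 in Sce RNAi and 337477 in mock. tra2, a splicing regulator gene, stood at 4717, 12883 and 13801, Irbp, which encodes a DNA end-binding protein, at 15978, 40416 and 53372, and x16, an SR-protein gene, at 481401, 1173909 and 1332653. In each of the 4 Sce RNAi lay nearer to mock than Ph RNAi did, but none of them had a q under 0.05 in either comparison with mock in the authors' deposited table. The hosts as a set had a median log2 ratio of -0.07, with 54 of the 90 below 0 against 49.6% of the other genes. The 28 ribosomal protein genes among them had a median of 0.01, the 56 hosts that are neither ribosomal protein nor Uhg genes -0.10, and the 6 Uhg genes kept -0.39, with all 6 below 0. The model of x16 is overlapped over 48.3% by nop5, and the small RNA within tra2 is named as a small Cajal body RNA.

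The same genes were among the 20 genes of above-median signal that were over 2-fold apart in nascent RNA and within 25% in total RNA, 10 in each direction. The log2 quotient of total RNA from the authors' deposited table was 0.12 for RpL15, 0.11 for tra2 and 0.15 for x16, while the log2 ratio of their nascent signal was -1.39, -1.35 and -1.28. On the other side CG43462 stood at 766113 in Ph RNAi, 255663 in Sce RNAi and 55988 in mock in nascent RNA. The entry CG31462 stood at 68159, 21524 and 3616. Both were matched to a model overlapped over 1.87% by the same noncoding RNA gene. They may thus be entries of 1 gene model, and they are not counted here as separate measurements. The log2 quotients of their total RNA from the authors' deposited table were 0.19 and 0.16. The Toll ligand gene spz and the nuclear receptor gene Eip75B, described above, had 0.19 and 0.22 in total RNA from the authors' deposited table.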
